A study of Mus musculus with 8 samples.

Results

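The genes of glycolysis and of the fate of pyruvate were examined in blood stem cells of mice that carried either 2 normal copies of Gata2 or the label of a Gata2 heterozygote. The group held 31 of the 53715 genes counted in each library. They were chosen by name as genes of the pathway, not by their values, with glucose and lactate carriers, the enzymes between them, the kinases that regulate phosphofructokinase and pyruvate dehydrogenase, and the transcription factor gene Hif1a. All 31 symbols matched an identifier of the count tables. The cells were haematopoietic stem cells from bone marrow, sorted for absence of lineage markers, presence of Sca-1 and Kit (LSK), absence of CD48 and presence of CD150. Each of 8 mice gave 1 library of total RNA depleted of ribosomal RNA, 4 wild type (Gata2 WT) and 4 labelled Gata2; Mx1-Cre heterozygote. All mice were between 8 and 12 weeks old and had been given 6 doses of pIpC, a double-stranded RNA mimic that induces interferon and through it the Mx1-Cre recombinase. Mx1-Cre acts in many interferon-responsive cells and not in stem cells alone, and no label states the Cre status of the wild-type mice. If those lacked it, transgene and Gata2 allele cannot be told apart. In the plots WT1 to WT4 and Het1 to Het4 stand for replicates 1 to 4 of each genotype.

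Glycolysis takes glucose in through membrane carriers, traps it by phosphorylation, splits the hexose into triose phosphates and harvests ATP and NADH on the way to pyruvate. Pyruvate is then either reduced to lactate by lactate dehydrogenase and exported, or carried into mitochondria and oxidised by the pyruvate dehydrogenase complex, which the pyruvate dehydrogenase kinases switch off. Quiescent marrow stem cells have been described as relying heavily on glycolysis, with hypoxia-inducible factor and the pyruvate dehydrogenase kinases as regulators of that state. Many steps are served by several isozymes from separate genes, which differ in tissue distribution and regulation.

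Library totals ran from 16750778 to 22861884 assigned fragments. The 31 members together took 0.292% to 0.484% of the counts of a library. Gata2 itself measured 30.1, 45.3, 29.1 and 38.5 CPM (library-size-scaled counts after TMM normalisation) in the wild-type mice, replicates in order, and 35.5, 61.9, 36.7 and 45.1 CPM in the heterozygote-labelled mice, so its transcript was not lower under that label (log2 difference 0.33, SE 0.23, 95% interval of the fold 0.873 to 1.80). Counts were summed over all exons, and a transcript lacking some of them would still be counted. Directions below therefore follow the deposited labels. Among genes that define other blood lineages, the 10 tested of 12 red cell markers and the 10 tested of 11 megakaryocyte markers each had 9 members with a negative log2 difference. Their summed levels ranged from 77.9 to 157 CPM in wild-type and 54.3 to 90.1 CPM in heterozygote-labelled libraries for red cells, and from 846 to 1065 and 596 to 890.3 CPM for megakaryocytes. Of 5 tested endothelial and stromal markers 4 were negative too, with summed levels from 68.3 to 106 and 42.9 to 75.8 CPM. Negative differences numbered 5 of 10 tested for neutrophils, 2 of 6 for monocytes and macrophages and 1 of 3 for T and natural killer cells. They numbered 2 of 2 for B cells, 2 of 3 for mast cells and basophils and 5 of 12 for stem cell markers. Over all tested genes 52% were negative. Stem cell markers were present in every library, with Kit at 125 to 228 CPM and the sort marker Slamf1 (CD150) at 19.1 to 43.4 CPM, while Cd48 measured 18.3 to 33.4 CPM. The red cell anion exchanger Slc4a1 had 0 counts in all libraries, as did the B cell gene Pax5 and the T cell genes Cd3e, Cd3g, Cd8a and Trac. Other genes of those lists were present, Cd79b at 103 to 129 CPM, Nkg7 at 228 to 510.3 CPM and Lck at 8.35 to 24.0 CPM. The summed B cell list ranged from 105 to 135 CPM in wild-type and 104 to 126 CPM in heterozygote-labelled libraries, and the T and natural killer cell list from 257 to 449 and 333 to 533 CPM. The summed neutrophil list ranged from 218 to 353 CPM and 187 to 319 CPM in the same order of genotypes. The part of these lineage transcripts in the differences reported here was not tested.

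In wild-type stem cells the lactate dehydrogenase genes stood at the top of the pathway by level per kilobase of exon. Levels between genes were compared as CPM per kilobase of summed exon length, since longer transcripts yield more fragments. Ldha reached 216 ± 35.6 CPM per kb and Ldhb 179 ± 21.0 CPM per kb (SD, n = 4), and their 4 wild-type values overlapped. Aldoa (128 ± 28.9), Pgk1 (105 ± 9.85), Eno1 (98.5 ± 20.3) and Tpi1 (88.0 ± 4.66 CPM per kb) came next, and among these each gene overlapped its neighbour. Ldhb and Aldoa did not overlap, but only narrowly, the lowest Ldhb value being 153.1 and the highest Aldoa value 152.6 CPM per kb. Tpi1 did not overlap Pdk3 (63.0 ± 2.59 CPM per kb). The gene after Pdk3, Pkm, reached 82.7 CPM per kb, above the lowest Tpi1 value of 81.8. Pkm (58.9 ± 23.4), Gapdh (38.0 ± 7.86) and Pdha1 (35.4 ± 7.19 CPM per kb) followed. The other neighbours in the order overlapped throughout. This order and the overlaps in it rest on the annotated exon length. In CPM without that division, wild-type Eno1 (373 to 608) lay above Ldhb (240.4 to 312) without overlap. Ldha had the highest wild-type mean on both scales. Genes of the regulated early steps were lower, with Pfkl at 14.3 ± 7.18, Slc2a3 at 14.2 ± 3.79 and Hk2 at 9.54 CPM per kb (range 7.40 to 10.9). The PFKFB genes were all under 1 CPM per kb on average, and Eno2 and Slc16a3 lay near the floor at 0.0777 and 0.0595 CPM per kb. Among the 13992 tested genes ranked by this level, Ldha came at place 303 and Pfkfb4 at place 12834.

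**Figure D1:**
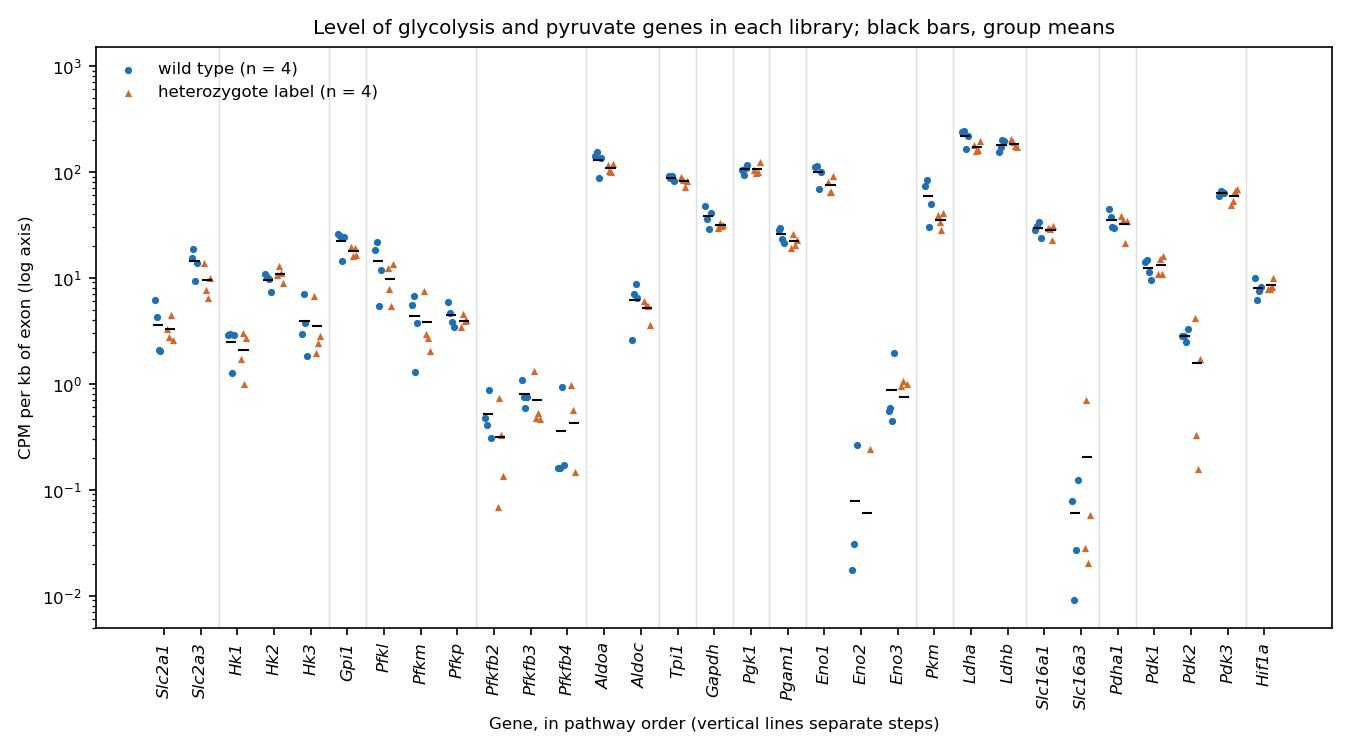
Level of each member in every library, as CPM per kb of exon on a log axis, with wild-type libraries as circles, heterozygote-labelled libraries as triangles and black bars for group means (n = 4 each). Values of 0 (Eno2 in WT3, Het1, Het2 and Het3, Eno3 in Het3, Pfkfb4 in Het4) cannot be drawn on this axis and enter only the means. Ldha and Ldhb lie highest and Slc16a3 and Eno2 lowest.

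Between the genotypes, transcripts of Pkm, Eno1 and Ldha had the smallest edgeR p-values of the pathway and were lower on average in heterozygote-labelled cells. The glucose carrier gene Slc2a3 came next, also lower, at an unadjusted p of 0.0504 by edgeR. Pgk1, Ldhb and Hif1a had close means in both genotypes. Of the 31 members, 29 had enough counts to be tested, and Eno2 and Slc16a3 did not. No member passed an adjusted p of 0.05 by edgeR, the adjusted values lying between 0.850 and 0.982. The same held for every gene, with 0% of 13992 called. At an unadjusted p under 0.05 there were 3 members, all lower in the heterozygote-labelled libraries, against 5.66% of all tested genes in either direction and 3.29% in that direction (2.37% in the other). Of the 29, 23 had a negative log2 difference, against 52% of all tested genes, and the median of the members was -0.19 beside -0.018 for all genes. The groups overlapped for every tested member, whereas they did not for 3.47% of all tested genes, 1.82% on the lower side. DESeq2 also called 0 members at an adjusted p of 0.05 (0.505% of its tested genes) and placed 4 at an unadjusted p under 0.05 (6.05% of all), adding Slc2a3 to the same 3. By limma-voom with quality weights 6 members were at that threshold, those 4 with Gpi1 and Gapdh (10.4% of all). In sequencing of sorted pools, fewer cells of a kind and less RNA per cell cannot be told apart.

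**Figure D2:**
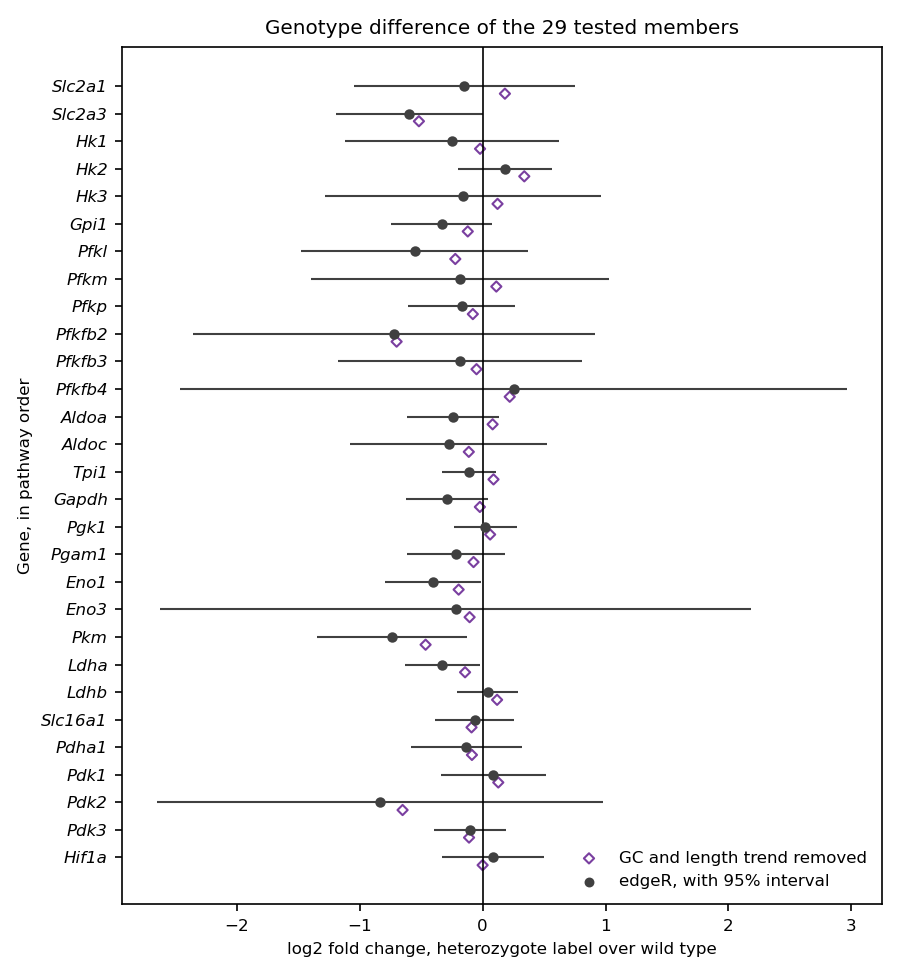
Log2 fold change of heterozygote-labelled over wild-type libraries for the 29 tested members in pathway order, with 95% intervals from edgeR (dots and bars). Open diamonds give the value without each library's trend on GC content and length. Pkm, Eno1 and Ldha are the members whose interval lies below 0, and their diamonds lie nearer to 0 than their dots.

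Promoter sequence gives a further property that the choice of members did not use. Hypoxia-inducible factor binds a short core, ACGTG or GCGTG, and both were searched on both strands in windows of 300 bases (250 before to 50 after a RefSeq transcription start, GRCm38.p6). The core ACGTG is also part of the E-box CACGTG. Of the 31 members, 30 had a window, Slc2a3 having none in the table, and of several windows the one starting nearest the 5′ end of the counted gene was used. That start still lay inside the counted gene for Ldha, Hif1a and Pfkfb2, at 4329, 6492 and 13205 bases from its 5′ end. At least 1 core was present in 24 of 30, against 43.8% of all 32851 windows, and ACGTG in 15, against 19.6%. These shares are not like for like, since all windows include several for some genes and genes with or without expression here. Windows of the members were also richer in GC, with a median of 62.2% against 52.7%, and how much of the difference follows from that was not tested. The 250 bases before the start are shown for Eno1 and Ldha, among the 3 members with the smallest p, and for Pgk1 and Ldhb, whose differences were near 0, with matches to either core in capitals.
Eno1 (chr4:150236458-150236707, plus strand): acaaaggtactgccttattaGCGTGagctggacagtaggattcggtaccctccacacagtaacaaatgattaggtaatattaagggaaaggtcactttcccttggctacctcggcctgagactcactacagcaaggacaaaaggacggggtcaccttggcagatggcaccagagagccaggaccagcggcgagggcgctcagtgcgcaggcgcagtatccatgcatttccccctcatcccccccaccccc
Ldha (chr7:46845554-46845803, plus strand): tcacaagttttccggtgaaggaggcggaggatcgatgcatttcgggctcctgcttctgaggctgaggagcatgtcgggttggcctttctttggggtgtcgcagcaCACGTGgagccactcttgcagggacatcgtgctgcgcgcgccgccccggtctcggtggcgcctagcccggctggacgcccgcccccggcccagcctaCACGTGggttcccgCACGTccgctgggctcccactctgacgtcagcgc
Pgk1 (chrX:106186850-106187099, plus strand): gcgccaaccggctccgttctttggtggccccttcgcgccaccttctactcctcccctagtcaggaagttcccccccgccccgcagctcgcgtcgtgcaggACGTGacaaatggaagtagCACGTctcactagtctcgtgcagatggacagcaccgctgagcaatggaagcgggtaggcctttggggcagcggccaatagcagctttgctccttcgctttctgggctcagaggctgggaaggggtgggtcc
Ldhb (chr6:142507958-142508207, minus strand): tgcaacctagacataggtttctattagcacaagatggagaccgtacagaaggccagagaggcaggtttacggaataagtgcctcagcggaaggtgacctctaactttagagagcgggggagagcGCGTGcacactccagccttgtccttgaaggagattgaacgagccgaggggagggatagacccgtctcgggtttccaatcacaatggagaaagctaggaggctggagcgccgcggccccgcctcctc
In these 250 bases Ldha held 2 copies of the E-box, each counted as a match on both strands, and a separate core, Pgk1 held 2 cores, and Eno1 and Ldhb 1 each. Pkm, with the smallest p, had no core in the window used, while the other of its 2 windows in the table held one. A match describes the letters only.

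Glucose uptake was represented mainly by Slc2a3, which encodes the high-affinity carrier GLUT3. Slc2a3 (chromosome 6 from 122727809 to 122801640, GRCm38) measured 110.4, 134, 67.8 and 100.1 CPM in the wild-type replicates, in order, and 98.9, 55.7, 46.3 and 72.1 CPM in those labelled heterozygote. The heterozygote-labelled replicates 2 and 3 were the lowest of the 8, and replicates 1 and 4 lay among the wild-type values, so the groups overlapped. Means reached 103 ± 27.5 and 68.2 ± 23.1 CPM (SD, n = 4 each). The log2 difference was -0.59 (SE 0.27), whose unadjusted p was 0.0504 (adjusted p = 0.850, edgeR). Without the trend on GC and length the difference was -0.52 at an unadjusted p of 0.0437. Slc2a1, encoding the widely expressed carrier GLUT1, was scarcer, with 21.5, 14.8, 7.23 and 7.09 CPM in wild-type and 11.4, 9.61, 15.5 and 9.11 CPM in heterozygote-labelled libraries. Its wild-type replicates 1 and 2 were well above replicates 3 and 4, and its difference of -0.15 (SE 0.40) turned to 0.18 once the GC and length trend was removed. It was 1 of 5 members whose sign that treatment turned.

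Hexokinase phosphorylates glucose and so holds it in the cell. Hk2, the inducible isozyme bound to mitochondria, made up most of the hexokinase transcript and measured 65.0, 60.2, 58.5 and 44.2 CPM in wild-type and 62.9, 76.9, 65.5 and 53.5 CPM in heterozygote-labelled libraries. It was among the 6 members with a positive difference, 0.18 (SE 0.17), and the groups overlapped. Hk2 lies on chromosome 6, 5.42 Mb from Gata2, the closest of the 6 members on that chromosome. Hk1, the housekeeping isozyme, gave 24.7, 24.8, 10.7 and 24.4 CPM and 14.5, 25.5, 8.51 and 22.9 CPM, lowest in replicate 3 of both genotypes, with a difference of -0.25 (SE 0.39). Hk3, a myeloid isozyme, varied 3.87-fold between libraries, from 6.69 to 25.9 CPM, with high values in 1 library of each genotype. Its difference was -0.16 (SE 0.50), and it became 0.12 without the GC and length trend.

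Gpi1, glucose-phosphate isomerase, measured 167, 159, 92.4 and 157 CPM in wild-type and 124, 103, 123 and 106 CPM in heterozygote-labelled libraries. Wild-type replicate 3 was the lowest of all 8, below every heterozygote-labelled library, while the other 3 wild-type libraries were above all of them. The log2 difference was -0.33 (SE 0.18). With 1 library left out it ran from -0.50 without wild-type replicate 3 (SE 0.11, adjusted p = 0.159 by edgeR) to -0.25 without wild-type replicate 1. Without the GC and length trend it was -0.12 at an unadjusted p of 0.424 by edgeR.

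Phosphofructokinase catalyses the committed step of glycolysis. Pfkl, the liver-type subunit, was the leading transcript of the family and among the most variable of the abundant members, at 121, 145, 36.4 and 78.8 CPM in wild-type and 82.5, 52.0, 36.2 and 89.6 CPM in heterozygote-labelled libraries. Its highest and lowest wild-type values differed by almost as much as any pair of libraries, and the difference of -0.55 (SE 0.41) did not exceed the spread between mice, with a 95% interval of the fold from 0.360 to 1.29. Pfkp, the platelet-type subunit, ranged from 45.5 to 79.0 CPM with a difference of -0.17 (SE 0.19). Pfkm, the muscle-type subunit, ranged from 4.31 to 24.9 CPM with -0.19 (SE 0.54), which became 0.11 without the GC and length trend. Bifunctional PFKFB enzymes set the level of the sugar phosphate that activates phosphofructokinase. Pfkfb2, Pfkfb3 and Pfkfb4 were low, from 0.501 to 6.36, 3.53 to 10.0 and 0 to 4.76 CPM. Their differences of -0.72 (SE 0.73), -0.18 (SE 0.45) and 0.25 (SE 1.21) carried wide errors. In Pfkfb4 the high libraries were wild-type replicate 3 and heterozygote-labelled replicates 1 and 2, and heterozygote-labelled replicate 4 had 0 counts, which allows up to 3 counts.

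Aldolase splits the hexose bisphosphate. Aldoa, the ubiquitous isozyme, measured 407, 444, 252 and 390.4 CPM in wild-type and 339, 293, 289 and 341 CPM in heterozygote-labelled libraries. As for Gpi1, wild-type replicate 3 was the lowest of the 8 and the other wild-type libraries were above all heterozygote-labelled ones. Its difference of -0.24 (SE 0.17) became 0.082 without the GC and length trend, the sign turning. Aldoc, the brain-type isozyme, ranged from 8.36 to 28.7 CPM and had its lowest value in wild-type replicate 1 and its highest in wild-type replicate 3, which for Aldoa stood near the top and at the bottom. Fragments were assigned to a second gene model that shares the Aldoa symbol in 1 library only, where it had 31 counts.

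The triose steps held some of the least variable members. Tpi1, triose-phosphate isomerase, ranged 1.28-fold over the 8 libraries, from 198 to 253 CPM, and differed by -0.11 (SE 0.10), with a sign that turned to 0.089 without the GC and length trend. Gapdh, glyceraldehyde-phosphate dehydrogenase and a common reference gene, measured 196, 148, 118 and 167 CPM in wild-type and 120.4, 136, 128 and 131 CPM in heterozygote-labelled libraries. The heterozygote-labelled values were tightly grouped and lay inside the wider wild-type range, with a difference of -0.29 (SE 0.15) that shrank to -0.022 without the GC and length trend. Pgk1, phosphoglycerate kinase, measured 230.4, 208, 245 and 259 CPM and 234, 219.9, 225 and 278 CPM. Its difference was 0.022 (SE 0.11), and the 95% interval of the fold ran from 0.852 to 1.21. Pgam1, phosphoglycerate mutase, ranged from 34.7 to 54.3 CPM with -0.22 (SE 0.18). Processed copies of Gapdh, Pgk1, Pgam1, Ldha and Eno1 exist elsewhere in the genome, and fragments that fit several places were left out, so the levels of these genes are minima. The copies listed in the tables drew few fragments, for example 4 to 9 per library for Pgam1-ps2 and 40 to 113 for Eno1b.

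Enolase was almost entirely Eno1. Eno1 (chromosome 4 from 150236721 to 150248879) measured 600.4, 608, 373 and 539 CPM in wild-type and 429, 345, 343 and 484 CPM in heterozygote-labelled libraries. Wild-type replicates 1, 2 and 4 were above every heterozygote-labelled library, and replicate 3 was among them. The means of 530.0 ± 109 and 400.4 ± 68.6 CPM (SD, n = 4 each) differed by -0.40 (SE 0.18) in log2 units. The unadjusted p was 0.0438 (adjusted p = 0.850, edgeR). Permuting the genotype over all 70 assignments (exact, two-sided, on log2 CPM) gave p = 0.114, the design allowing no value under 0.0286. Without the GC and length trend the difference was -0.19 at an unadjusted p of 0.114. The muscle isozyme gene Eno3 ranged from 0 to 3.35 CPM and differed by -0.22 (SE 1.08), and the neuronal Eno2 had at most 28 counts in any library and was not tested.

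Pkm, the pyruvate kinase gene and the final energy-yielding step of glycolysis, had the smallest p-value of all members. It lies on chromosome 9 from 59656368 to 59679375 and measured 363, 414, 152 and 249 CPM in wild-type and 193, 167, 141 and 204 CPM in heterozygote-labelled libraries. Wild-type replicates 1, 2 and 4 were above every heterozygote-labelled library, with replicates 1 and 2 far above, and replicate 3 lay near the bottom of all 8. Means were 294 ± 117 and 176 ± 28.4 CPM (SD, n = 4 each), and the log2 difference was -0.74 (SE 0.27) with a 95% interval of the fold from 0.392 to 0.916. By edgeR p was 0.0229 before and 0.850 after adjustment, and the exact permutation gave p = 0.143. DESeq2 gave 0.00951 before and 0.304 after adjustment. Without the GC and length trend the difference was -0.46 at an unadjusted p of 0.0234. Counts were summed over all exons, so the alternative M1 and M2 forms of the enzyme were not separated.

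Lactate dehydrogenase interconverts pyruvate and lactate, and its subunit genes did not share a pattern across libraries. Ldha (chromosome 7 from 46841475 to 46855627), whose product favours lactate formation, measured 782, 806, 545 and 721 CPM in wild-type and 594, 514, 528 and 641 CPM in heterozygote-labelled libraries. Wild-type replicates 1, 2 and 4 again lay above all heterozygote-labelled libraries and replicate 3 among them. The log2 difference was -0.33 (SE 0.14) with p = 0.0380 before and 0.850 after adjustment by edgeR, and the exact permutation gave p = 0.0857. Without the GC and length trend it was -0.14 at an unadjusted p of 0.163. Ldhb, whose product favours the oxidation of lactate, measured 240.4, 267, 312 and 303 CPM and 317, 296, 273 and 268 CPM, a difference of 0.040 (SE 0.11) with an interval of the fold from 0.864 to 1.22. Slc16a1, encoding the lactate carrier MCT1, ranged from 100.2 to 149.7 CPM with a difference of -0.065 (SE 0.14). Slc16a3, encoding the export carrier MCT4 of strongly glycolytic cells, had 1 to 61 counts per library, the highest in heterozygote-labelled replicate 2, and was not tested.

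Pdha1, the catalytic subunit gene of pyruvate dehydrogenase, ranged from 80.1 to 166 CPM, lowest in heterozygote-labelled replicate 3, and differed by -0.13 (SE 0.20). Among the kinases that inactivate the complex, Pdk3 was the most abundant transcript, with 152, 167, 164 and 162 CPM in wild-type and 124, 134, 167 and 177 CPM in heterozygote-labelled libraries and a difference of -0.10 (SE 0.13). Wild-type values of Pdk3 were close together, and heterozygote-labelled replicates 1 and 2 lay below all of them. Pdk1, a target of hypoxia-inducible factor, ranged from 74.1 to 126 CPM with 0.087 (SE 0.19). Pdk2 had a low and unusually scattered signal, 8.85, 8.84, 7.80 and 10.3 CPM in wild-type against 13.0, 1.04, 0.491 and 5.42 CPM in heterozygote-labelled libraries. The wild-type libraries of Pdk2 were alike, while the heterozygote-labelled ones spanned 26.5-fold, from 9 counts in replicate 3 to 260 in replicate 1, so that a difference of -0.84 (SE 0.81) had an unadjusted p of 0.328 (adjusted p = 0.899 by edgeR). Single libraries decided this value, which was -1.93 without heterozygote-labelled replicate 1, at an unadjusted p of 0.0337 (adjusted p = 0.824, edgeR). It was -0.50 without replicate 2 and -0.46 without replicate 3. The starvation-induced Pdk4, outside the member list, was at most 1.45 CPM in any library. Hif1a, the oxygen-regulated subunit of hypoxia-inducible factor, measured 59.1, 36.3, 44.0 and 48.4 CPM and 45.6, 45.7, 48.5 and 59.1 CPM, with a difference of 0.084 (SE 0.19) and a fold interval from 0.796 to 1.41. Its protein is controlled mainly by degradation, which transcript counts do not measure. Pgk1, Pdha1 and Pdk3 are X-linked, and in libraries with Xist counts they covered 230.4 to 278, 109 to 166 and 124 to 177 CPM, overlapping the 208 to 245, 80.1 to 140.4 and 134 to 167 CPM of the libraries with Y-linked counts. Each genotype had 2 libraries of either kind.

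Isozyme choice was compared as the share of each gene in the CPM per kb of its family, which is free of scaling between libraries. On this scale and on that of raw counts, Slc2a3, Hk2, Aldoa, Eno1, Slc16a1 and Pdk3 led their families in every library. Pfkl led per kb in all 8, but in raw counts the longer Pfkp was ahead in wild-type replicate 3 (55.5% against 39.8%) and in heterozygote-labelled replicates 2 (49.4% against 42.5%) and 3 (53.5% against 37.2%). Hk2 took 60.7 ± 7.21% of hexokinase transcript in wild-type and 66.5 ± 9.58% in heterozygote-labelled libraries (SD, n = 4 each). Pfkl took 60.3 ± 5.97% and 54.6 ± 10.2% of phosphofructokinase, and Pdk3 80.6 ± 2.61% and 79.7 ± 4.17% of the kinase transcripts of pyruvate dehydrogenase. The share in any library was at least 97.9% for Eno1, 97.6% for Slc16a1 and 90.8% for Aldoa. Ldha and Ldhb shared the lactate dehydrogenase transcript more evenly. The Ldha share was 60.7, 58.8, 45.3 and 53.0% in the wild-type libraries and 47.0, 45.1, 47.8 and 53.1% in the heterozygote-labelled libraries. Per kb Ldha led in wild-type replicates 1, 2 and 4 and in heterozygote-labelled replicate 4, and Ldhb in the others, a change of leader that rests on the division by exon length (3310 bases for Ldha and 1570 for Ldhb). In raw counts Ldha led in all 8 libraries, with 63.4% to 76.5%. The per-kb means of Ldha, 54.5 ± 6.91% and 48.3 ± 3.43%, differed by less than the SD of the wild-type group, and every family overlapped between genotypes. Among the PFKFB genes the leader changed from library to library, on few counts, with Pfkfb3 ahead in 6 of 8.

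**Figure D3:**
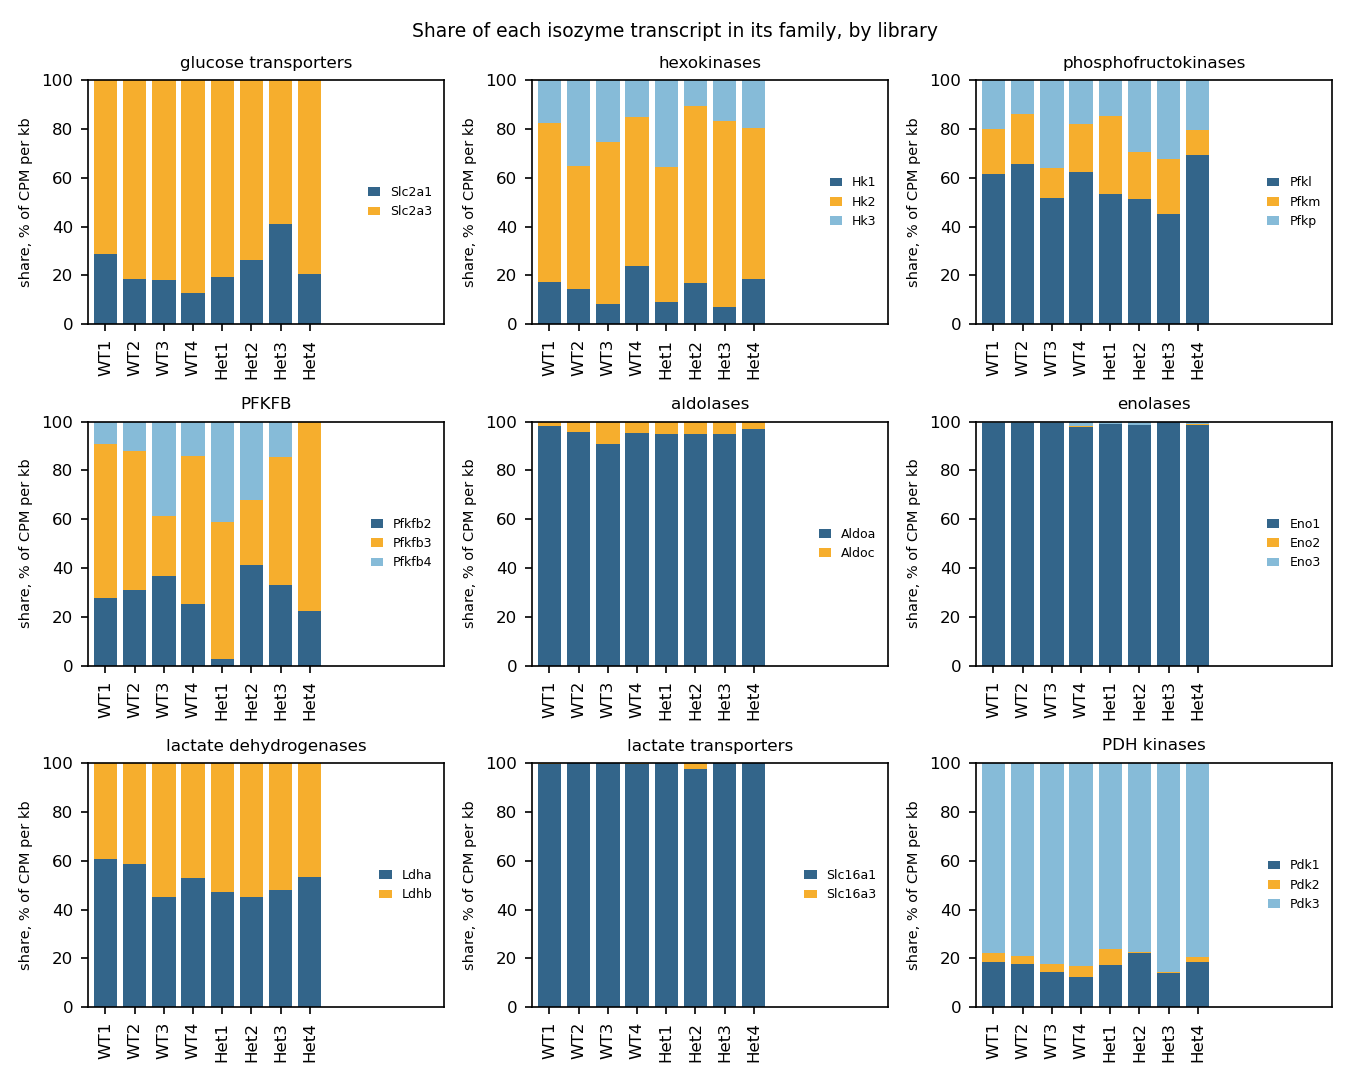
Share of each isozyme in the summed CPM per kb of its family (vertical axis, percent) in each of the 8 libraries, as stacked bars. Hk2, Pfkl and Pdk3 lead their families in every library on this scale, while Ldha takes 45.1% to 60.7% of lactate dehydrogenase transcript.

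Libraries also differed over the members as a whole. The median deviation of the 29 tested members from their gene means was 0.307, 0.304, -0.142 and 0.106 log2 units in wild-type replicates in order and 0.0178, -0.0643, -0.233 and -0.0433 in the heterozygote-labelled ones. Wild-type replicates 1 and 2 were high, with 21 and 25 of 29 members above their mean, and wild-type replicate 3, with 10, lay within the range of the heterozygote-labelled libraries, of which replicate 3 was the lowest with 6. The summed level of all 31 members averaged 4004 ± 564 CPM in wild-type and 3383 ± 303 CPM in heterozygote-labelled libraries (SD, n = 4 each), and the groups overlapped through wild-type replicate 3. Without that library, 8 members were at an unadjusted p under 0.05, all lower under the heterozygote label (Slc2a3, Gpi1, Pfkl, Aldoa, Gapdh, Eno1, Pkm and Ldha), against 12.5% of all genes tested then, and 7 did not overlap between groups, against 13.2%. Pkm then differed by -0.95 (SE 0.19), beside -0.52 without wild-type replicate 2, and the smallest adjusted p of any member without wild-type replicate 3 was 0.159 by edgeR. Without wild-type replicate 1, wild-type replicate 2, heterozygote-labelled replicate 2 or heterozygote-labelled replicate 3, 0 members were at an unadjusted p under 0.05. Members without overlap numbered 1 without wild-type replicate 1 (5.4% of all genes), 2 without heterozygote-labelled replicate 1 (6.43%) and 0 without any other library but wild-type replicate 3. The larger number without wild-type replicate 3 follows in part from singling out the library through which the sums overlapped.

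**Figure D4:**
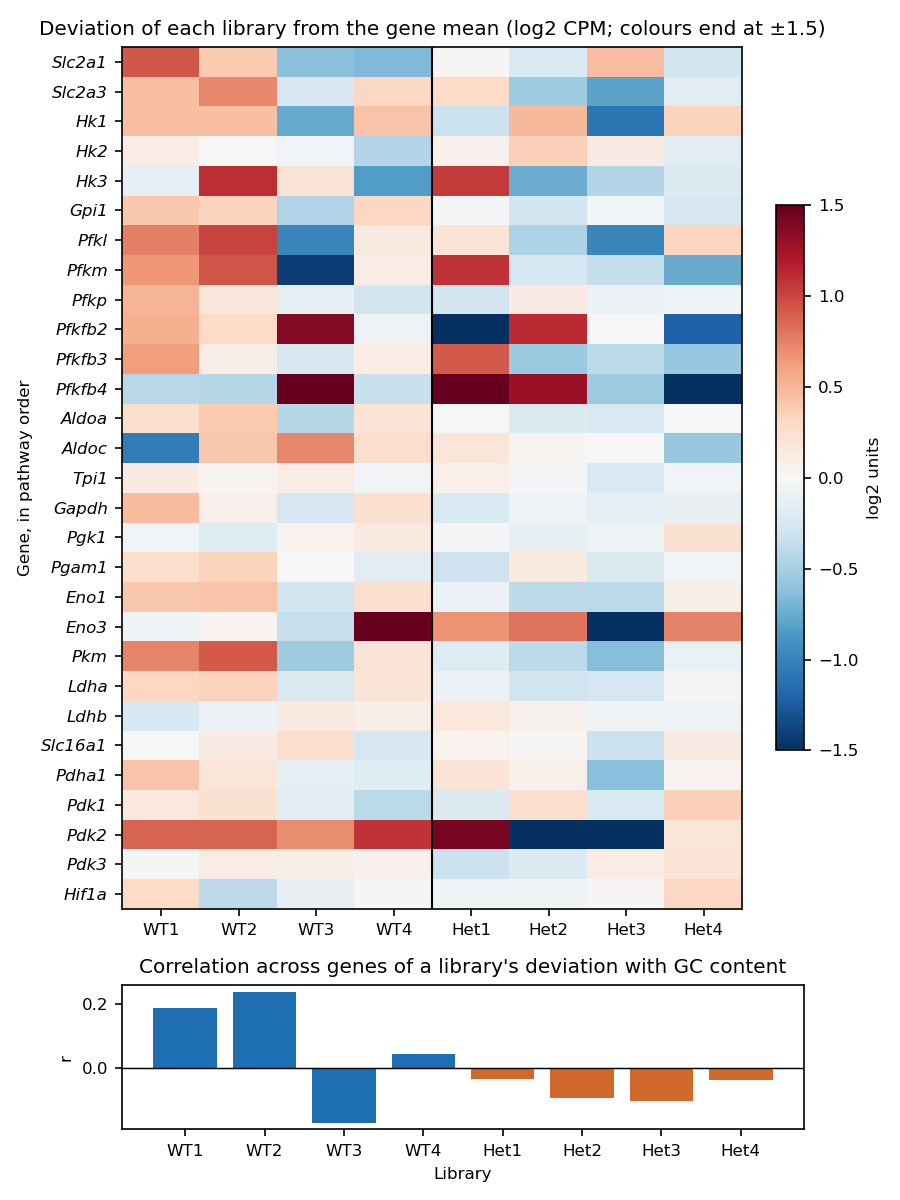
Upper panel, deviation of each library (columns) from the mean log2 CPM of each tested member (rows), red for higher and blue for lower, with a black line between the genotypes. Lower panel, correlation across all tested genes between a library's deviation and GC content. WT1 and WT2 are mostly red and have the highest correlations, 0.185 and 0.236, and WT3 is mostly blue with the lowest, -0.168.

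The base composition of what each library captured moved along with these members. Taken over all tested genes, GC content and the deviation of a library from the gene means correlated by 0.185, 0.236, -0.168 and 0.0437 in wild-type replicates 1 to 4 and by -0.0321, -0.0927, -0.101 and -0.0366 under the heterozygote label. Genes are not independent replicates, and these values describe the libraries. Among all tested genes the median log2 difference was 0.10 for genes under 45% GC (3481 genes), 0.014 from 45 to 50% (3980), -0.090 from 50 to 55% (3733) and -0.20 from 55% upwards (2787). In the lower ranges the 3 and 6 members had medians of -0.065 and -0.15, below those of all genes there. Of the members, 14 and 6 fell in the upper ranges, with medians of -0.20 and -0.42, and Pkm, at 55.1% GC, was well below the median of its range. After each library was freed of its trend on GC content and length, 18 of 29 members had a negative difference, against 45.4% of all genes, and their median was -0.074 beside 0.040 for all genes. Slc2a3 and Pkm were then at an unadjusted p under 0.05, against 5.2% of all genes, and neither passed after adjustment (smallest adjusted p of a member 0.913 by edgeR).

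**Figure D5:**
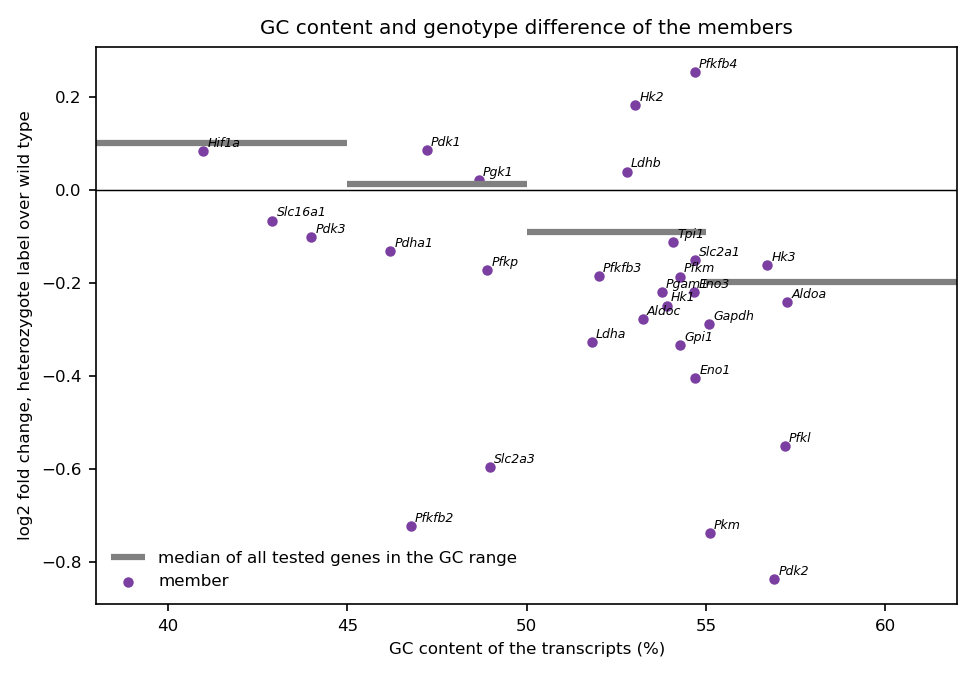
GC content of each tested member's transcripts (horizontal axis, percent) against its log2 difference between genotypes (vertical axis). Grey bars are the medians of all tested genes under 45%, from 45 to 50%, from 50 to 55% and from 55% upwards. The bars step down from 0.10 to -0.20, and Slc2a3, Pfkfb2, Pfkl, Pkm and Pdk2 lie farthest below them.

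Neighbouring pathways were read from lists named by textbook role, beside a median of -0.018 and 52% negative over all genes. Over all tested genes 5.66% had an unadjusted p under 0.05 by edgeR and 3.47% did not overlap between groups. None of their genes passed an adjusted p of 0.05 by edgeR. Among 29 other glycolysis and carrier genes, 11 of 18 tested were negative (median -0.18), 7 had 0 counts in all libraries, and 1 had an unadjusted p under 0.05. That was Emb, a partner protein of lactate carriers, at 152 ± 19.7 and 235 ± 43.1 CPM, a positive difference of 0.63 (SE 0.15) without overlap. Bsg, the more general partner of such carriers, differed by -0.037 (SE 0.083). All 7 tested genes of the pentose phosphate pathway, which branches off after hexokinase to make NADPH and ribose, were negative (median -0.21), with the lactonase gene Pgls at -0.50 (SE 0.26) and the dehydrogenase gene Pgd at -0.46 (SE 0.33), and 0 had an unadjusted p under 0.05. Genes of mitochondrial pyruvate entry and of the pyruvate dehydrogenase complex were split, with 4 of 9 negative (median 0.045). The pyruvate carrier gene Mpc2 differed by 0.16 (SE 0.094) and Dlat, the acetyltransferase of the complex, by -0.43 (SE 0.27). Tricarboxylic acid cycle genes had 12 of 20 negative (median -0.048), and the succinyl-CoA ligase gene Sucla2 differed by 0.32 (SE 0.17).

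Of the glucose-forming genes, 3 of 7 were tested. The shares over all tested genes were again 5.66% at an unadjusted p under 0.05 by edgeR and 3.47% without overlap. G6pc3, the ubiquitous glucose phosphatase, measured 86.2, 71.2, 49.7 and 52.8 CPM in wild-type mice and 37.6, 37.6, 48.7 and 48.5 CPM under the heterozygote label, a difference of -0.59 (SE 0.21) without overlap. Mitochondrial Pck2 differed by 0.44 (SE 0.19). The unadjusted p was 0.0180 for G6pc3 and 0.0496 for Pck2 (adjusted p = 0.850 for both, edgeR). Fbp1, the phosphatase that opposes phosphofructokinase, was expressed at 44.5 CPM in wild-type cells and differed by 0.10 (SE 0.17). In the regulators of hypoxia-inducible factor 4 of 6 tested genes were negative (median -0.16). Arnt, the constitutive partner of Hif1a, measured 12.8 CPM in wild-type mice and differed by 0.60 (SE 0.26), with an unadjusted p of 0.0432 and, by edgeR, an adjusted p of 0.850. Epas1, the gene of the related oxygen-regulated subunit, was at most 0.923 CPM. A list drawn up under the heading of targets of the factor, without glycolysis genes, had 10 of 15 tested negative (median -0.070). It included Meis1 and Txnip, both negative. Being listed does not establish a gene as a target, and regulation by the factor was not tested for any listed gene. The collagen hydroxylase gene P4ha2 stood at 2.28, 1.55, 1.10 and 0.705 CPM in the wild-type mice against 0, 0, 0 and 0.0512 CPM under the heterozygote label, with an adjusted p of 0.834 by edgeR. Other listed genes such as Bnip3 at -0.18 (SE 0.16), Ndrg1 at -0.25 (SE 0.26) and Bnip3l at 0.29 (SE 0.17) had no common sign.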

How the data were processed

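Each deposited table holds raw fragment counts per gene for 1 library, which the authors did not normalise. Per the file headers, counting used featureCounts 1.6.2 on paired reads in reverse-stranded mode, both ends mapped, over exons of GENCODE M17 on GRCm38. The submitters' processing notes name Trim Galore, cutadapt, STAR 2.5.1b and featureCounts 1.5.1, a version difference that was not resolved. The recorded command sets no option to count fragments that fit several places or genes, so these were left out, which lowers genes with near-identical copies. Antisense partners were separated by strand.

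Symbols came from GENCODE M21, of the same build (53620 of 53715 identifiers matched). Where 2 identifiers shared a symbol, the one with more counts was used. Groups and replicate numbers came from the library descriptions. All pairs of libraries differed by more than counting error (lowest chi-square per degree of freedom 35.7). Litters and batches are not stated.

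Genes passing filterByExpr of edgeR 4.0.16 (R 4.3.3) were scaled by TMM and fitted with genotype as the only term (robust quasi-likelihood, two-sided, Benjamini-Hochberg over 13992 genes). CPM values are TMM-scaled, and log2 CPM has a prior count of 2. Each standard error is the fitted log2 change over the root of its F value. Alternatives were DESeq2 1.42.0, limma 3.58.1 (voom with quality weights), median-of-ratios scaling, no filter, a sex term from Xist and Y-linked counts, the replicate number as a block, removal of each library's loess trend on GC content and length (span 0.3, GC from GENCODE M21 transcripts), and each library left out. In data simulated for this comparison with 13992 genes, the fit recovered 26.0% of genes changed 2-fold and 51.7% of those changed 4-fold, with 12 false calls over 3 simulations. Floors of 3 counts cover counting error only, since fragments carried no molecular identifiers. Members, lists and tests were chosen with earlier results of these data known. All 31 members were named, and of each pathway list those at an unadjusted p under 0.05 or else the 2 smallest, except for an item not reported here. Bsg, Bnip3, Bnip3l, Ndrg1, Meis1, Txnip, Fbp1, Pdk4 and Epas1 were named after their values were seen. H6pdh of the pentose phosphate list matched no symbol.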

Additional observations from a re-analysis of the deposited data

Results flagged for a closer look

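In 5 of 58 groups of 4 libraries, 2 for each tested member, 1 library stood apart from the other 3 by Dixon's criterion, and chance alone gives about 1 in 20 such groups. Wild-type replicate 3 was the library in 3 of them. It lay at a log2 CPM of 3.44 for Hk1, against 4.62 to 4.64 in the other wild-type libraries, and at 6.53 for Gpi1, against 7.29 to 7.38. For Pfkfb4 it lay above the others, at 2.20 against -0.19 to -0.10. Among the heterozygote-labelled libraries, replicate 1 stood at 3.34 for Pfkfb3, against 1.86 to 2.03, and replicate 3, with 0 counts for Eno3, at -3.34, against 0.81 to 0.95.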

How the results depend on the processing

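No member passed an adjusted p of 0.05 under any of the 15 alternatives. 14 of 29 tested members kept the sign of their difference throughout, among them Pkm, Ldha, Eno1, Slc2a3, Gpi1, Pfkl and Gapdh. Over all genes DESeq2 called 79 and every edgeR alternative and limma-voom 0, while genes at an unadjusted p under 0.05 numbered 792 with all libraries, 1412 by DESeq2, 1461 by limma-voom, 1472 without the filter on low counts, and 557 to 1812 with 1 library left out, the highest without wild-type replicate 3. Members at that threshold numbered 3, 6 by limma-voom and 0 to 8 with 1 library left out. Same-numbered libraries correlated by 0.00565 to 0.0961 in their deviations, which cannot decide whether the replicate numbers pair the mice. Wild-type replicates 1 and 3 correlated best with the heterozygote-labelled library of the same number, and replicates 2 and 4 with another. With the replicate number as a block, 24 of 29 members were negative with a median of -0.21, 946 genes had an unadjusted p under 0.05, Slc2a3 crossed that threshold (adjusted p = 0.723 by edgeR), and Pfkfb4 turned to -0.50. Slc2a3 crossed it as well with the sex term (adjusted p = 0.806 by edgeR) and without the filter on low counts (adjusted p = 0.593 by edgeR). Pfkfb4 also turned by limma-voom, to -0.75. Without the trend on GC content and length Slc2a1 was at 0.18, Hk3 at 0.12, Pfkm at 0.11, Aldoa at 0.082 and Tpi1 at 0.089. The cause was not tested. With 1 library left out, the members whose sign turned ranged as follows: Slc2a1 -0.35 to 0.24, Hk3 -0.70 to 0.30, Pfkm -0.74 to 0.12, Pfkp -0.28 to 0.0053, Pfkfb3 -0.69 to 0.012, Pfkfb4 -0.57 to 1.36, Pgk1 -0.059 to 0.071, Eno3 -0.44 to 0.52, Ldhb -0.019 to 0.10, Slc16a1 -0.15 to 0.022, Pdha1 -0.21 to 0.022, Pdk1 -0.028 to 0.19 and Hif1a -0.010 to 0.22. The count of negative members ran from 20 to 25 and their median from -0.30 to -0.13. Isozyme shares and the order of levels between genes depend on the annotated exon length.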
